A study of Mus musculus with 4 samples.

Results

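Amacrine and horizontal cells are the interneurons of the retina, and 9 transcription factors with known roles in making them, *Foxn4*, *Ptf1a*, *Prdm13*, *Tfap2a*, *Tfap2b*, *Tfap2c*, *Lhx1*, *Lhx9* and *Prox1*, were followed in retinas with a deletion of Nrf1, a DNA-binding activator of nuclear genes for mitochondrial proteins. They were chosen by name as factors of these fates, with no measured value in the rule but with earlier results of these data known. They are 9 of the 24062 genes in the count table. RNA-seq was done on retinas of E13.5 mouse embryos of C57BL/6 129 mixed strain, from 2 wildtype libraries and 2 libraries of *Nrf1 f/f;Six3-Cre* embryos, labelled Nrf1-CKO. In the latter, Cre recombinase under *Six3* control removed an exon flanked by loxP sites from both *Nrf1* alleles in proliferating retinal progenitors, and cells outside the reach of *Six3-Cre* kept the intact gene. Each library was a pool of retinas from several littermates, and the labels do not say whether the pools came from separate litters, so p-values measure the spread between these libraries. All samples had the same age, tissue and strain.

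During retinal development both cell classes arise from progenitors that express *Foxn4*. Foxn4 turns on *Ptf1a*, whose basic helix-loop-helix protein works in a complex with an E-protein and Rbpj, and Ptf1a in turn turns on *Prdm13* in precursors of amacrine cells and the *Tfap2* genes in both classes. *Prox1* and *Lhx1* then act in horizontal cells, and *Lhx9* in a subset of amacrine cells. These roles are background from earlier work and were not tested here.

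*Prdm13* and *Ptf1a* fell to 16.6% and 19.5% of the wildtype mean in Nrf1-CKO retinas, while *Foxn4*, which stands above both, was at 94.2% and not called. *Prox1* rose to 166%. *Tfap2b* differed little, and *Lhx1*, *Lhx9*, *Tfap2a* and *Tfap2c* were measured on few reads. Called means a fold change of at least 1.4 with an adjusted p of at most 0.2 in edgeR's quasi-likelihood test, the thresholds that the study used. All 9 factors were among the 15762 genes tested. Of these 9, 3 were called lower (*Prdm13*, *Ptf1a*, *Lhx1*), against 8.04% of all tested genes, and 3 were called higher (*Prox1*, *Tfap2a*, *Tfap2c*), against 12.8%. *Lhx1* passed the filter on low counts only through the wildtype, and without it 2 were called lower. At an adjusted p of 0.05, 2 were lower (*Prdm13*, *Ptf1a*), where 6.59% of all tested genes were, and 1 was higher (*Prox1*), where 9.17% were. The libraries of the genotypes did not overlap for 7 of the 9 factors, and neither did they for 62.5% of all tested genes, so the count of 7 says little about these factors. Over the 9 factors the median log2 fold change was -0.09, beside 0.00 for all tested genes.

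**Figure D1:**
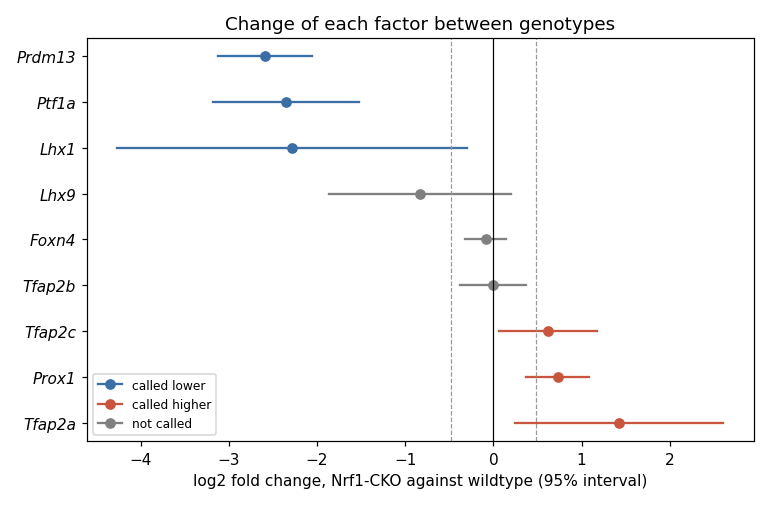
Log2 fold change of each factor, Nrf1-CKO against wildtype, on the x axis, with points for the fitted value and lines for its 95% interval; dashed lines mark a fold change of 1.4. *Prdm13*, at -2.59, and *Ptf1a*, at -2.35, lie far to the left of the dashed lines, the intervals of *Foxn4* and *Tfap2b* lie between the dashed lines, and that of *Lhx1* is the widest.

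Depth was similar, with 74577660 to 85933945 reads counted on genes per library. For *Nrf1*, 9052 and 7789 wildtype reads stood against 8594 and 8284 Nrf1-CKO reads (log2 fold change -0.03, adjusted p = 0.794, edgeR), and since the deletion takes out 1 exon, a count over the whole gene does not check the labels. Markers of retinal progenitors summed to between 8911 and 9288 CPM (counts per gene scaled to library size with TMM factors) in the wildtype and between 6954 and 7305 in the Nrf1-CKO libraries. Of 10, 3 were called lower, the cyclin gene *Ccnd1* (log2 fold change -0.88) and, named after their values were seen, *Hes5* (-0.72) and *Fgf15* (-0.70). Most of the fall of the sum came from *Ccnd1*, at 2541 and 2775 CPM in wildtype and 1390 and 1502 CPM in Nrf1-CKO libraries, and from *Fgf15*, at 1111 and 1162 against 708 and 694 CPM. The other 7 were not called, among them the Wnt modulator gene *Sfrp2*, at -0.03. Markers of ganglion cells, a neuron class made by the same progenitors, were called lower for 7 of 8, with *Nefl* at -1.95 and *Stmn2* at -1.77. Markers of other tissues moved mostly the other way. All 14 lens markers were called higher, with summed levels of 182 and 502 CPM in wildtype and 9985 and 4125 in Nrf1-CKO libraries. Called higher were also 8 of 10 epithelial, 8 of 12 mesenchymal, 6 of 8 pigment cell, 6 of 9 endothelial, 9 of 9 macrophage and 2 of 5 erythroid markers tested, while *Eya2* of the mesenchymal list, a gene that retinal neurons also express, and *Kdr* of the endothelial list were lower. *Ccnd1*, *Fgf15*, *Eya2*, *Nefl*, *Stmn2* and other ganglion cell markers are on the study's own list of lower genes from these libraries. Their decreases are therefore not independent evidence. In bulk tissue, fewer cells of a type and less RNA per cell cannot be told apart, and this holds for every difference below.

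*Ptf1a* (chr2:19445663-19447501, plus strand, GRCm38) and *Prdm13* (chr4:21677480-21685963, minus strand) fell together, and *Foxn4* (chr5:114254164-114273807, minus strand) is the factor above them, so the promoters of these 3 genes are shown. They come from RefSeq on GRCm38.p6, are read 5′ to 3′ towards the gene, and end at the base before the gene in the GENCODE annotation. Capitals mark TGGGAA or its reverse TTCCCA, the core letters that Rbpj recognises, and, in *Foxn4*, GCGCATGC, a short form of the site that Nrf1 recognises.
Ptf1a, chr2:19445413-19445662, plus strand: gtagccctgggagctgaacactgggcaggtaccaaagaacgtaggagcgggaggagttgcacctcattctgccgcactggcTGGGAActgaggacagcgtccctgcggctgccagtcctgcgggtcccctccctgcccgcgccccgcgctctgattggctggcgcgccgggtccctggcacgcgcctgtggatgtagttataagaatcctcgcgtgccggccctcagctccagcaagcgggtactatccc
Prdm13, chr4:21685964-21686213, minus strand: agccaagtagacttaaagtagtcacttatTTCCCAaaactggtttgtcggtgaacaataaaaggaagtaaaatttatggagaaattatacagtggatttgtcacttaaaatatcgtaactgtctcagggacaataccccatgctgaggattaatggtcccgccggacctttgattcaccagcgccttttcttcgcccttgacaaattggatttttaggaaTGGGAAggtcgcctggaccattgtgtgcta
Foxn4, chr5:114273808-114274011, minus strand: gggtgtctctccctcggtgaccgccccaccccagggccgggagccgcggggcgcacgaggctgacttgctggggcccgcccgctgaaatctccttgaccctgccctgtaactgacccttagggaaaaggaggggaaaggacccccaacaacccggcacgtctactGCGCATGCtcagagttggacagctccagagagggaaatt

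The *Ptf1a* promoter held the Rbpj letters once, beginning 169 bases before the RefSeq start, and the *Prdm13* promoter held them at 221 and 30 bases before it. They also stood in 1 window of *Prox1*, at 240 bases, and 1 of *Tfap2a*, at 13 bases before the start, both genes that were called higher. On either strand, 21.6% of the 32851 promoter windows of 250 bases in RefSeq hold these letters, so 1 match is common. The full Nrf1 palindrome, GCGCNNGCGC, stood in 4.98% of all windows and in none of the 10 windows found for 8 of the 9 factors. The shorter GCGCATGC, searched on both strands and chosen after the promoters were read, was in 2.26% of all windows. Among these factors it was in that of *Foxn4*, beginning 85 bases before its RefSeq start. That start lies inside the gene in GENCODE, so only 204 of the window's 250 bases are printed above. A match of letters is not a site at which a factor was seen to bind.

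*Foxn4*, a forkhead gene of progenitors that become competent to make both cell classes, had 277 and 294 CPM in the wildtype and 243 and 295 CPM in the Nrf1-CKO libraries. The genotypes overlapped, and the highest and the lowest value both belonged to Nrf1-CKO. Its log2 fold change was -0.09 (standard error, SE, 0.10; 95% interval -0.32 to 0.15, adjusted p = 0.609, edgeR), and the interval stays within a fold change of 1.4 in both directions. The Notch ligand gene *Dll4*, which Foxn4 is known to activate, is named here after its values were seen. It had 76.4 ± 11.5 CPM in the wildtype and 77.2 ± 3.37 CPM in the Nrf1-CKO retinas (SD, n = 2), giving a log2 fold change of 0.01 (95% interval -0.23 to 0.25). Of the endothelial markers 6 of 9 were called higher and 1 lower, and the part of such cells in the *Dll4* level was not tested.

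*Ptf1a*, which both amacrine and horizontal cells need, was counted at 541 and 516 reads in wildtype libraries and at 152 and 61 reads in Nrf1-CKO libraries. These are 6.18 and 6.96 against 1.83 and 0.737 CPM. Both Nrf1-CKO libraries lie well below both wildtype libraries, and they differ more from each other than the wildtype libraries do. The log2 fold change was -2.35 (SE 0.37, 95% interval -3.18 to -1.52, adjusted p = 0.00207, edgeR). It was -3.15 without Nrf1-CKO replicate 1 and -1.84 without Nrf1-CKO replicate 2, so its size rests on which of them is used, and the call held in both cases. On the authors' deposited log2 values, tested with limma, the change was -1.01 and still called. *Ptf1a* is on the study's own list of genes lower in these libraries, so its decrease is not independent evidence. An antisense gene, *Ptf1aos*, shares 609 bases with its exons, 40.4% of them, and without a known strand setting the reads of the pair cannot be told apart.

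*Prdm13*, a zinc finger factor gene of amacrine precursors that Ptf1a activates, drew 1953 and 2208 wildtype reads against 449 and 268 Nrf1-CKO reads, or 22.3 and 29.8 against 5.40 and 3.24 CPM. The lowest wildtype value is above the highest Nrf1-CKO value by a wide margin. Its log2 fold change of -2.59 (SE 0.24, 95% interval -3.13 to -2.05, adjusted p = 0.000197, edgeR) is the lowest of the 9 factors, though the intervals of *Prdm13* and *Ptf1a* overlap. On the deposited log2 values it was -1.70 and called.

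**Figure D2:**
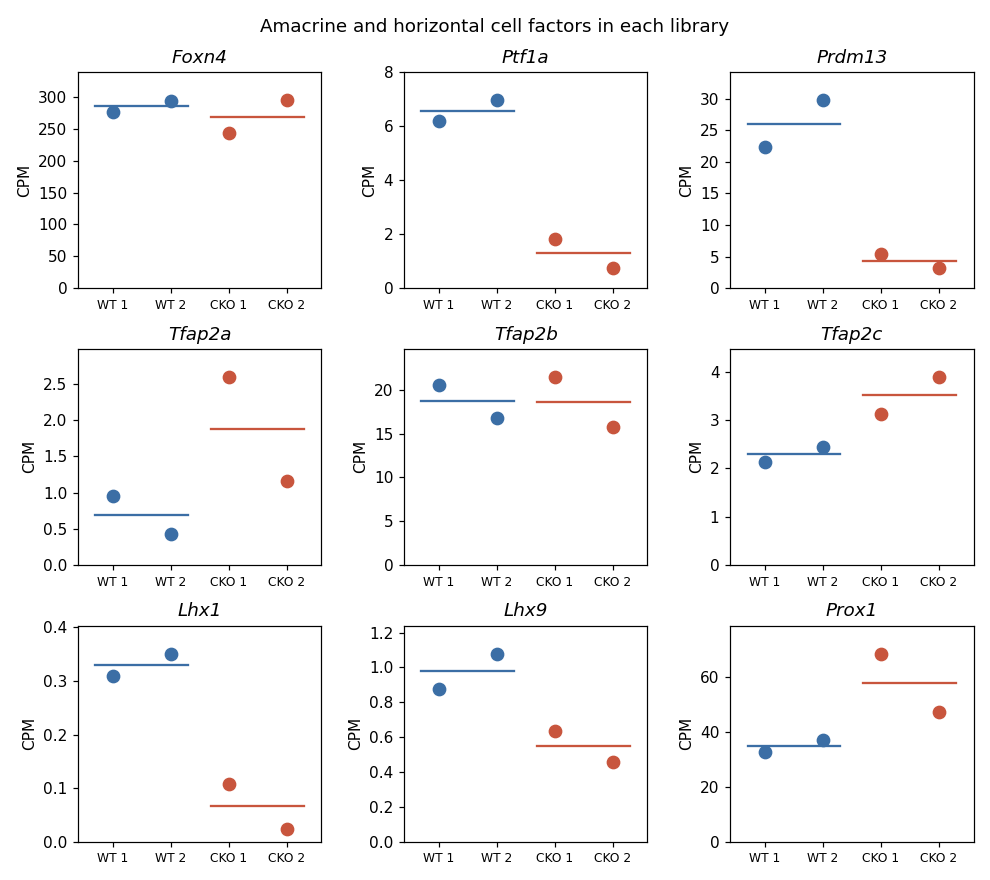
CPM of each factor on the y axis, which starts at 0 and differs between panels, with a point per library and a line at the mean of each genotype (WT, wildtype, blue; CKO, Nrf1-CKO, red). *Ptf1a*, *Prdm13*, *Lhx1* and *Lhx9* are lower in both Nrf1-CKO libraries, *Tfap2a*, *Tfap2c* and *Prox1* are higher in both, and *Foxn4* and *Tfap2b* overlap.

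Ratios within a library do not depend on how libraries are scaled. For every 100 reads of *Foxn4*, the wildtype libraries had 2.23 and 2.36 reads of *Ptf1a* and the Nrf1-CKO libraries 0.752 and 0.250. For *Prdm13* this was 8.04 and 10.1 in wildtype libraries and 2.22 and 1.10 in Nrf1-CKO libraries. Both ratios were lower in both Nrf1-CKO libraries, by log2 differences of -2.40 and -2.53. *Prdm13* against *Ptf1a* did not separate the genotypes, with 361 and 428 reads per 100 in wildtype libraries and 295 and 439 in Nrf1-CKO libraries (log2 difference -0.13, two-sided exact permutation test, p = 1). With 2 libraries against 2 this exact permutation test cannot go below p = 0.333, the value it gave for both ratios to *Foxn4*.

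**Figure D3:**
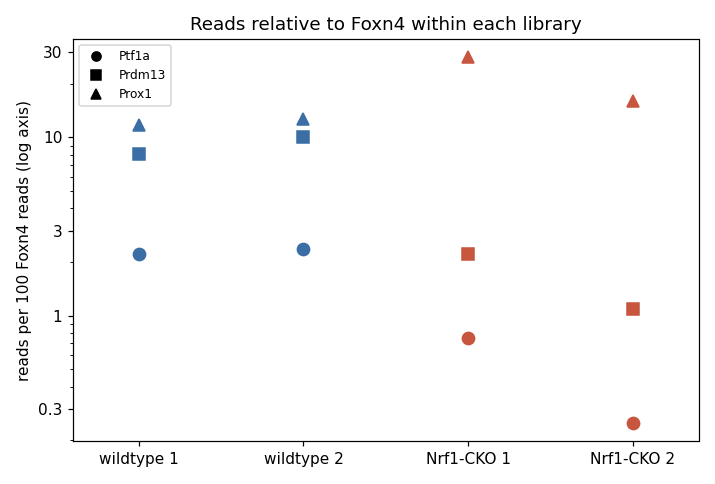
Reads of *Ptf1a* (circles), *Prdm13* (squares) and *Prox1* (triangles) per 100 reads of *Foxn4* on a log y axis, for each library on the x axis (blue, wildtype; red, Nrf1-CKO). *Ptf1a* and *Prdm13* are lower in both Nrf1-CKO libraries and lowest in replicate 2, and *Prox1* is higher, with its highest value in replicate 1.

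The 3 *Tfap2* genes code for AP-2 factors, and Tfap2a and Tfap2b act together in differentiating amacrine and horizontal cells. *Tfap2b* (chr1:19208914-19238576) had 20.6 and 16.8 CPM in the wildtype and 21.5 and 15.7 CPM in the Nrf1-CKO libraries. The genotypes overlapped almost completely, at a log2 fold change of -0.01 (SE 0.16, 95% interval -0.38 to 0.36, adjusted p = 0.981, edgeR), again within a fold change of 1.4. It stands apart here from *Ptf1a*, which lies above it. Per 100 reads of *Ptf1a* wildtype libraries held 333 and 241 reads of *Tfap2b* and Nrf1-CKO libraries 1174 and 2133. The log2 difference was 2.48 (exact permutation test, p = 0.333). Markers of other tissues were mostly higher in the Nrf1-CKO libraries, with 8 of 12 mesenchymal markers called higher and 1 lower. The part of such tissues in the *Tfap2b* level was not tested.

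*Tfap2a* (chr13:40715302-40738376), also a gene of surface ectoderm and neural crest, drew 84 and 32 wildtype reads against 216 and 96 Nrf1-CKO reads. These few reads gave 0.959 and 0.431 against 2.60 and 1.16 CPM, and wildtype replicate 1 came close to Nrf1-CKO replicate 2. The log2 fold change was 1.42 (SE 0.52, 95% interval 0.24 to 2.61, adjusted p = 0.0844, edgeR). The call was lost without wildtype replicate 2, at 0.97, and without Nrf1-CKO replicate 1, at 0.73. The order of the libraries by *Tfap2a* was that of the summed epithelial markers, which were at 39.2 and 31.1 CPM in wildtype and 82.1 and 70.2 in Nrf1-CKO libraries. Of the 10 genes on that list 8 were called higher, with *Cdh1* at a log2 fold change of 2.82 and *Krt18* at 0.82, and none was at 0. The summed mesenchymal markers, at 401 and 344 CPM in wildtype and 508 and 440 in Nrf1-CKO libraries, had the same order. So had the endothelial markers, whose wildtype sums were nearly equal and came mostly from *Kdr*. The part of these tissues in the *Tfap2a* result was not tested. Per 100 reads of *Tfap2b* wildtype libraries held 4.66 and 2.57 reads of *Tfap2a* and Nrf1-CKO libraries 12.1 and 7.38 (exact permutation test, p = 0.333). Exons of *Tfap2a* overlap 3 antisense genes over 380, 265 and 73 bases.

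*Tfap2c* (chr2:172549593-172558622), the AP-2 gene of a subset of amacrine cells, had 2.14 and 2.44 CPM in the wildtype and 3.13 and 3.89 CPM in the Nrf1-CKO libraries. Both Nrf1-CKO values lie above both wildtype values, at a log2 fold change of 0.62 (SE 0.24, 95% interval 0.06 to 1.17, adjusted p = 0.107, edgeR). Without wildtype replicate 1 it was 0.53 and without Nrf1-CKO replicate 2 it was 0.45, and it was called in neither case.

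*Lhx1* (chr11:84518284-84525535) codes for a LIM homeodomain factor that horizontal cells need to reach their layer. Its counts were 27 and 26 in wildtype libraries and 9 and 2 in Nrf1-CKO libraries, so it was barely detected at this depth. All Nrf1-CKO values were lower, at a log2 fold change of -2.29 (SE 0.87, 95% interval -4.27 to -0.30, adjusted p = 0.0963, edgeR). The call was lost on leaving out wildtype replicate 1, at -2.37, wildtype replicate 2, at -2.19, or Nrf1-CKO replicate 2, at -1.59. *Lhx9* (chr1:138825186-138848577), a LIM homeodomain gene of a subset of amacrine cells, had 77 and 80 wildtype reads and 53 and 38 Nrf1-CKO reads. Both Nrf1-CKO libraries were lower, but its log2 fold change of -0.83 (SE 0.45, 95% interval -1.86 to 0.20, adjusted p = 0.235, edgeR) was not called, and the interval reaches from a large decrease to a small increase.

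*Prox1* (chr1:190118035-190170714) codes for a homeodomain factor that promotes the horizontal cell fate and is also used in lens fibres and lymphatic endothelium. Wildtype libraries held 2860 and 2765 of its reads and Nrf1-CKO libraries 5694 and 3912, or 32.7 and 37.3 against 68.5 and 47.3 CPM. Both Nrf1-CKO libraries were higher, replicate 1 by much more than replicate 2. The log2 fold change was 0.73 (SE 0.16, 95% interval 0.37 to 1.08, adjusted p = 0.0102, edgeR), and without Nrf1-CKO replicate 1 it fell to 0.44, below a fold change of 1.4. The order of the libraries by *Prox1* was that of the summed lens markers, lowest in wildtype replicate 1 and highest in Nrf1-CKO replicate 1. All 14 lens markers were called higher, their median log2 fold change being 4.31, and the lens crystallin genes *Cryaa* and *Crybb3* were at 4.38 and 4.58, with ranges of 3.63 to 5.21 and 3.82 to 5.75 when each library was left out, lowest without Nrf1-CKO replicate 1 and highest without wildtype replicate 2. None of them was at 0 in the wildtype. Of the endothelial and lymphatic markers 6 of 9 were called higher and 1 lower, with *Cdh5* at 1.21 and *Kdr* at -0.55. Their sum was 288 CPM in both wildtype libraries and 315 and 308 in the Nrf1-CKO libraries. Of this, *Kdr* alone gave 200 and 211 CPM in wildtype and 144 and 137 CPM in Nrf1-CKO libraries. Its decrease so offset the increases of others in the sum. The part of lens and vessels in the *Prox1* result was not tested.

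**Figure D4:**
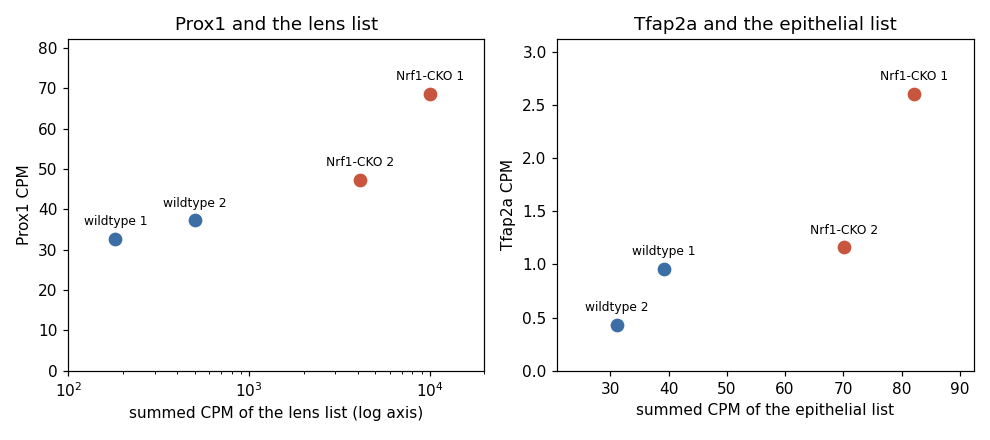
Left, CPM of *Prox1* on the y axis against the summed CPM of the 14 lens markers on a log x axis; right, CPM of *Tfap2a* against the summed CPM of the 10 epithelial markers, with a point per library (blue, wildtype; red, Nrf1-CKO). In each panel the libraries have the same order on both axes, over only 4 points.

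The tested genes whose pattern over the 4 libraries was most like that of *Prox1* were *Atn1*, *Dsp* and *Kmt2d*, at Euclidean distances of 0.0820, 0.124 and 0.148 between log2 CPM values centred on each gene's mean. *Dsp* codes for desmoplakin of cell junctions and *Kmt2d* for a histone methyltransferase. Their log2 fold changes were 0.70, 0.73 and 0.60, near that of *Prox1*, which their selection implies. Without Nrf1-CKO replicate 1 they were 0.42, 0.46 and 0.37, none of them called, as for *Prox1*. None was called in the test against a fold change of 1.4, nor *Dsp* on the deposited values, at 0.44.

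Levels of different genes were compared per length, as RPKM over all annotated exon bases. In the wildtype *Foxn4* stood far above the others at 84.8 ± 3.57 RPKM (SD, n = 2), and *Prdm13* followed at 6.08 ± 1.23. *Ptf1a* at 4.35 ± 0.365 and *Prox1* at 4.17 ± 0.390 RPKM overlapped in their libraries, and *Tfap2b* came next at 2.95 ± 0.421. The remaining 4 were below 1 RPKM, *Tfap2c* at 0.622, *Tfap2a* at 0.142, *Lhx9* at 0.103 and *Lhx1* at 0.0809, and the libraries of *Tfap2a* and *Lhx9* overlapped. In the Nrf1-CKO retinas *Foxn4* was still first at 79.9 ± 10.9 RPKM, but *Prox1* at 6.90 ± 1.79 and *Tfap2b* at 2.93 ± 0.641 now came before *Prdm13* at 1.01 ± 0.358, *Tfap2c* at 0.954 ± 0.147 and *Ptf1a* at 0.851 ± 0.512. The last 3 overlapped in their libraries, and *Tfap2a*, at 0.383 ± 0.208, overlapped with *Ptf1a*.

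Around these 9 factors, 69 further genes of amacrine and horizontal cell development and of the same gene families were listed by their known roles. Of the 56 that were tested, 24 were called lower, 3 higher and 29 neither, while of all tested genes 8.04% were called lower and 12.8% higher. Their median log2 fold change was -0.28, beside 0.00 for all tested genes. The study's list of lower genes holds *Onecut3*, *Isl1*, *Ebf1*, *Ebf3*, *Barhl2*, *Calb2*, *Th*, *Elavl3* and *Elavl4*, so their decreases are not independent evidence either.

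The partners of Ptf1a in its complex were not called. *Rbpj* had 118 ± 5.89 CPM in the wildtype and 106 ± 5.33 CPM in the Nrf1-CKO retinas, a log2 fold change of -0.15 (95% interval -0.34 to 0.03). The E-protein genes *Tcf3*, *Tcf4* and *Tcf12* were at 0.20, 0.06 and -0.08, each with a 95% interval inside a fold change of 1.4. These 4 are named after their values were seen, as all tested genes of the list.

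Factors of progenitors and precursors were called lower for 6 of 14 and higher for none, with a median of -0.26. Of all tested genes 8.04% were called lower and 12.8% higher. The *Onecut* genes, which precursors of horizontal cells need and ganglion cells also express, were all among the 6 factors called lower. Ganglion cell markers fell in the same libraries, with *Nefl* at -1.95, and the part of each cell class was not tested. *Onecut3* fell most, from 9.70 ± 0.909 to 2.17 ± 1.17 CPM (SD, n = 2; log2 fold change -2.16, adjusted p = 0.00160, edgeR). It was called in each case at -2.85 without Nrf1-CKO replicate 1 and -1.11 on the deposited values. *Onecut2* was at -0.84, the SoxE gene *Sox8* at -0.98, and *Onecut1* at -0.65, all called lower, though *Onecut1* was not called in a test against a fold change of 1.4 (adjusted p = 0.259, edgeR's glmTreat). Their 2 wildtype libraries were above both Nrf1-CKO libraries in each case.

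Among factors of amacrine subtypes, 5 of 10 tested were called lower and 2 higher, with a median of -0.51, beside 8.04% lower and 12.8% higher of all tested genes. *Ebf3* fell from 187 ± 11.8 to 56.7 ± 14.0 CPM (log2 fold change -1.73, adjusted p = 0.000152, edgeR), and *Ebf1* and the LIM homeodomain gene *Isl1* were called lower at -1.56 and -1.37. *Barhl2*, a homeobox gene of amacrine diversity, was at -0.99, with 20.3 ± 0.184 CPM in the wildtype and 10.2 ± 0.124 CPM in the Nrf1-CKO retinas. The genes called higher, named after their values were seen, were the nuclear factor I genes *Nfia*, at 0.50 (adjusted p = 0.0566, edgeR), and *Nfib*, at 0.62 (adjusted p = 0.00178, edgeR), of which *Nfib* alone passed an adjusted p of 0.05. *Isl1*, *Barhl2* and the *Ebf* genes are also used in ganglion cells, whose markers fell, and the part of each cell class was not tested.

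Genes of amacrine transmitters and effectors were called lower for 7 of 11 tested and higher for 1, with a median of -1.07, where 8.04% of all tested genes were called lower and 12.8% higher. Ganglion cells also use *Calb2* and the *Elavl* genes, and 7 of 8 ganglion cell markers were called lower in the same libraries, with a median of -1.80. The part of each cell class was not tested. *Calb2*, coding for the calcium-binding protein calretinin, fell from 21.1 ± 2.50 to 3.73 ± 1.12 CPM (log2 fold change -2.50, adjusted p = 0.000122, edgeR). *Th*, the gene of tyrosine hydroxylase of dopaminergic cells, was at -2.10 and the neuronal RNA-binding protein gene *Elavl4* at -1.48, both called lower. On the deposited values *Calb2* was at -1.57 and *Th* at -1.18, also called. The called gene of the opposite direction was *Slc6a9*, coding for a glycine transporter, which is named after its values were seen. It had 9.54 ± 0.288 CPM in the wildtype and 19.0 ± 2.85 CPM in the Nrf1-CKO retinas (log2 fold change 0.99, adjusted p = 0.00110, edgeR).

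Of 7 tested effector genes of horizontal cells 2 were called lower and none higher, with a median of -0.19, beside 8.04% lower and 12.8% higher of all tested genes. Among them, the connexin gene *Gja10*, named after its values were seen, had 121 and 38 wildtype reads against 37 and 32 Nrf1-CKO reads, so wildtype replicate 1 alone stood apart (log2 fold change -1.19, adjusted p = 0.182, edgeR). In relatives of the 9 factors by gene family, 4 of 10 tested were called lower, *Lhx4* at -1.35, *Tfap2d* at -1.08, *Lhx3* at -0.98 and *Prdm8* at -0.65, and none higher. The call of *Lhx3* was lost at an adjusted p of 0.05, in a test against a fold change of 1.4, on the deposited values, and without wildtype replicate 1, at -0.88, or Nrf1-CKO replicate 2, at -0.87. *Prdm8* was not called in the test against a fold change of 1.4 or on the deposited values, at -0.33, nor *Lhx4* on the deposited values, at -0.43. On the deposited values both missed only the fold change of 1.4, with adjusted p of 0.0272 for *Prdm8* and 0.0130 for *Lhx4* (limma). *Tfap2d* was lower where *Tfap2a* and *Tfap2c* were higher, and it had 9.12 ± 0.522 CPM in the wildtype and 4.33 ± 0.772 CPM in the Nrf1-CKO libraries.

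**Figure D5:**
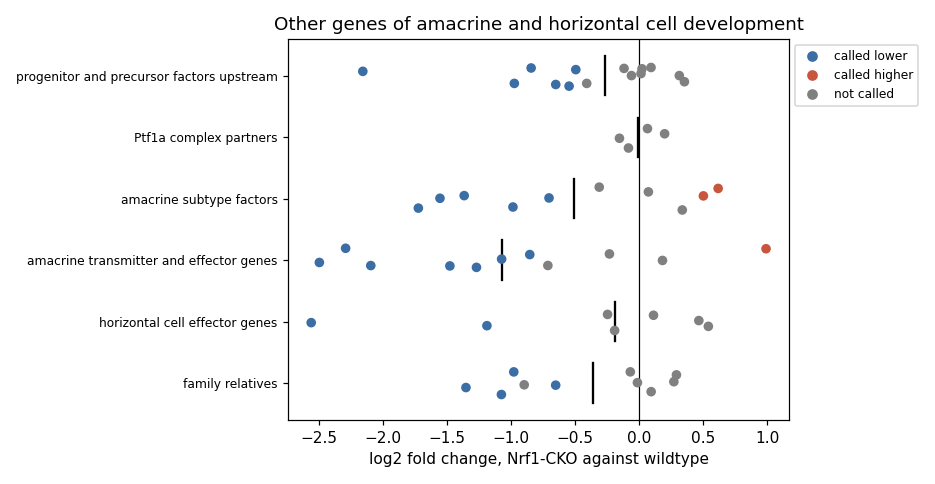
Log2 fold change, Nrf1-CKO against wildtype, on the x axis for each tested gene of 6 lists (blue, called lower; red, called higher; grey, not called), spread at random in height within a list, with a vertical bar at each list's median. The partners of Ptf1a lie near 0, while genes of amacrine transmitters and effectors have the lowest median, -1.07.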

How the data were processed

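RNA from pools of E13.5 retinas was sequenced as paired-end reads, with 2 wildtype and 2 Nrf1-CKO libraries grouped by their labels. The authors aligned reads to mm10 (GRCm38) with TopHat2 and summed them per gene with HTSeq, and the counts they deposited are raw, whole numbers. The strand setting and the annotation release are not given in the sources used here. The authors also deposited normalized values on a log2 scale, whose making is not given in the sources used here; they served as an alternative. The submitters' processing notes also name DESeq and limma, and the paper names Cuffdiff for its own comparison, which was not repeated.

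The 24062 gene rows were used. The 5 HTSeq summary rows, 74.0% to 75.0% of all entries, stayed out, and most were alignments that were not unique. Gene reads were 74577660 to 85933945 per library. The biological coefficient of variation was 12.0%, and intervals rest on 2 libraries per genotype. Replicates of each genotype differed by more than counting error.

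Genes were filtered with filterByExpr at its minimum count of 10, scaled with TMM and tested with edgeR 4.0.16 (R 4.3.3; glmQLFTest, genotype only, Benjamini-Hochberg over 15762 genes). Standard errors derive from the fold change and its F statistic. Named genes were the 9 factors, up to 4 called genes per list with the largest change at a mean of 1 CPM or more, the 2 most abundant genes per marker list, and the 3 genes most like the called factor with the most reads, at a mean of 5 CPM or more. Members and lists were chosen with earlier results of these data known. Alternatives were DESeq2 1.42.0, edgeR's exact test and glmTreat, other scalings and filters, a replicate block, a stricter threshold, the deposited log2 values with limma 3.58.1, and each library left out. Positions and exon lengths come from GENCODE on GRCm38, promoters from RefSeq. The results of 3 further listed genes are not reported here, though counts over the lists include them.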

Additional observations from a re-analysis of the deposited data

How the results depend on the processing

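*Ptf1a* and *Prdm13* kept their direction and their call in all 16 alternatives, at log2 fold changes from -3.15 to -1.01 and from -3.00 to -1.70. The values nearest 0 came from the deposited normalized values. On that log2 scale *Lhx1*, with 27 and 26 wildtype reads and 9 and 2 Nrf1-CKO reads, stood at 8.56 and 8.59 and at 8.38 and 8.25. Differences at such few reads were small on that scale, and the cause was not tested. Of 143 values of the 9 factors under an alternative, 120 kept both direction and side of the threshold.

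Against a fold change of 1.4 (glmTreat) and at an adjusted p of 0.05, *Tfap2a* at 1.42, *Tfap2c* at 0.62 and *Lhx1* at -2.29 were not called. Nor were they on the deposited values, at 0.39, 0.26 and -0.26. There they missed only the fold change of 1.4, with adjusted p of 0.0721, 0.0898 and 0.0808 (limma). *Lhx9*, at -0.83, was called by the exact test and with at least 10 counts in every library, a filter that drops *Lhx1*. *Tfap2b* was at 0.032 with upper quartile scaling, and *Sfrp2* at 0.0080. With libraries left out in turn, the values ranged from -3.15 to -1.84 for *Ptf1a*, -3.00 to -2.27 for *Prdm13*, -0.23 to 0.048 for *Foxn4*, 0.73 to 2.12 for *Tfap2a*, -0.25 to 0.20 for *Tfap2b*, 0.45 to 0.77 for *Tfap2c*, -3.68 to -1.59 for *Lhx1*, -1.09 to -0.62 for *Lhx9*, 0.44 to 0.97 for *Prox1* and -0.14 to 0.069 for *Sfrp2*. *Foxn4*, *Tfap2b* and *Sfrp2* so changed sign without being called: *Foxn4* was at 0.048 without Nrf1-CKO replicate 1, *Tfap2b* at 0.15 without wildtype replicate 1 and 0.20 without Nrf1-CKO replicate 2, and *Sfrp2* at 0.0079 without wildtype replicate 2 and 0.069 without Nrf1-CKO replicate 1.

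The 9 factors had 2 to 3 called lower and 1 to 2 higher with a library left out, and 1 higher under glmTreat, the stricter threshold and the deposited values. Listed genes had 20 to 25 lower and 2 to 3 higher with a library left out, and 1 higher under glmTreat. Over all genes, 743 were lower and 1188 higher under glmTreat, and 723 and 945 on the deposited values, against 1268 and 2024; without 1 library they were 1071 to 1402 and 1703 to 1856.

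Same-numbered libraries did not deviate together over genes (correlation -0.0025). The labels do not say what a number shares, so this cannot tell whether same-numbered pools had a litter or preparation in common. A replicate block gave -2.45 for *Ptf1a*, -2.61 for *Prdm13* and 0.71 for *Prox1*, with 1256 genes lower and 1970 higher, and changed no call among the 9 factors. Depth limits *Lhx1*, *Lhx9* and *Tfap2a*, and with 2 libraries per genotype intervals are wide.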
